A study of Mus musculus with 4 samples.

Results

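The 34 genes described here mark the endothelial lineage, the cells that line blood vessels and the inner surface of the heart. They comprise 7 regulators, 9 receptors, 5 ligands, 8 junction and surface genes and 5 genes of matrix, enzyme or effector products. All 34 listed symbols were found among the 20701 gene symbols of a deposited table of 31507 transcript entries. Where a symbol had several entries, which was so for 12 of the 34, the entry with the highest summed count over the 4 libraries was kept.

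Transcript levels were measured by poly(A) RNA-Seq in cardiac progenitor cells made from mouse E14 Tg(Nkx2-5-EmGFP) ES cells, an embryonic stem cell line in which a green fluorescent protein reports the cardiac transcription factor gene Nkx2-5. Reporter-positive cells were sorted at day 5 of differentiation. The control group had 2 libraries and the Isl1_KO group had 2, from clones in which CRISPR/Cas9 with a pair of guides had been used to disrupt Isl1, a LIM-homeodomain transcription factor gene of cardiac progenitors. By the study's methods each library stands for 1 clone. The reporter, the feeder cells used for stem cell culture, the day and the sort were shared by all 4. The series' design text speaks of Isl1 short hairpin constructs, while the sample titles and the study's methods name a knockout; the titles were followed. The methods describe a hanging drop culture and a directed protocol with added VEGF, a ligand of receptors listed here. A sort at day 5 is given for both and RNA extraction is mentioned with the directed protocol, while the sample labels name neither.

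Endothelial cells arise from mesoderm through ETS family factors, among which Etv2 acts early and transiently and Fli1, Erg and Ets1 keep endothelial genes active. The SoxF factors Sox7, Sox17 and Sox18 act beside them in vessel formation. VEGF ligands signal through Flt1, Kdr and Flt4, and angiopoietins signal through Tek together with Tie1. Cells become a sealed vessel wall through junction proteins such as Cdh5 and Cldn5, and Nkx2-5-expressing progenitors are known to include precursors of the endocardium, the endothelium of the heart.

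The libraries held between 8821536 and 13186103 counts over 1 entry per gene, and 3 counts corresponded to between 0.231 and 0.341 CPM (counts-per-million, scaled by effective library size as in all values below). Gene positions follow GENCODE vM1 (NCBIM37, the assembly of mm9), and paired values are given in the order replicate 1, replicate 2. Isl1, the targeted gene, went from 309 and 326 counts in control to 17 and 24 in the deeper Isl1_KO libraries, in keeping with the labels. The control libraries differed by little more than counting error (chi-square per degree of freedom of 1.13 over 13323 genes), whereas the same ratio was 17.7 for the Isl1_KO libraries over 13427 genes. For the endothelial genes it was 0.933 in the control pair and 27.2 in the Isl1_KO pair, so the Isl1_KO libraries stood apart from each other and are given one by one throughout. Over all genes the small excess of the control pair over counting error had a p of 1.48e-24 in the chi-square test, which takes genes as independent. Whether this excess comes from differences between clones was not tested. If it does not, the spread used by the tests is too small. Of 12715 genes tested, the quasi-likelihood test of edgeR called 312 (2.45%) with adjusted p-values below 0.05, 247 lower in Isl1_KO (1.94%) and 65 higher (0.511%).

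Summed levels of cell type markers differed between the libraries in the same fit. Genes were called in the cardiomyocyte and cardiac progenitor lists, and 0 in each of the other lists. The summed level of 5 defining endothelial markers (Cdh5, Pecam1, Tek, Tie1 and Emcn) was 161 and 164 CPM in control, 147 CPM in Isl1_KO replicate 1 and 94.4 CPM in replicate 2. All 5 were detected in control, so endothelial transcripts were present in the sorted cells, and Emcn was at 0 in both Isl1_KO libraries. The 9 cardiomyocyte markers summed to 1936 and 2013 CPM in control and to 121 and 70.1 CPM in Isl1_KO, with all 8 tested markers called lower. Smooth muscle markers (6 genes) summed to 2524 and 2531 CPM in control, and to 2177 and 748 CPM in Isl1_KO replicates 1 and 2. Fibroblast or feeder markers (8 genes) followed the same order, with 2485 and 2437 CPM in control and 1743 and 694 CPM in Isl1_KO. Blood markers (10 genes) summed to 445 and 451 CPM in control, 258 CPM in replicate 1 and 90.0 CPM in replicate 2. Early mesoderm markers (6 genes) were at 31.1, 31.3 and 32.4 CPM in the first 3 of these libraries and at 158.5 CPM in Isl1_KO replicate 2. Single genes carried much of some sums, such as Acta2 for smooth muscle (1638 and 1636 CPM in control) and Hbb-bh1 for blood (284 and 293 CPM). Other members went the other way. Tagln lay above control in replicate 1 (842 CPM against 681 and 690), and Gata1 and Itga2b lay above it in both Isl1_KO libraries. Cardiac progenitor markers (8 genes) summed to 1545 and 1567 CPM in control and to 1429 and 1153 CPM in Isl1_KO. Of these, 5 were called, all lower (Isl1, Nkx2-5, Mef2c, Tbx5 and Hand2). Hand1, above control in both Isl1_KO libraries (1122 and 871 CPM against 839 and 848), made up most of the sum. Nkx2-5, the reporter's gene, was at 21.1 and 19.8 CPM in control against 4.77 and 4.34 in Isl1_KO (adjusted p of 0.00687 in edgeR's test). Replicate 2 thus had the lowest level of 7 of the 9 lists and the highest level of the early mesoderm and pluripotent lists. The part of these shifts in the endothelial values was not tested, and in bulk RNA fewer cells of a type and less RNA per cell cannot be told apart.

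**Figure D1:**
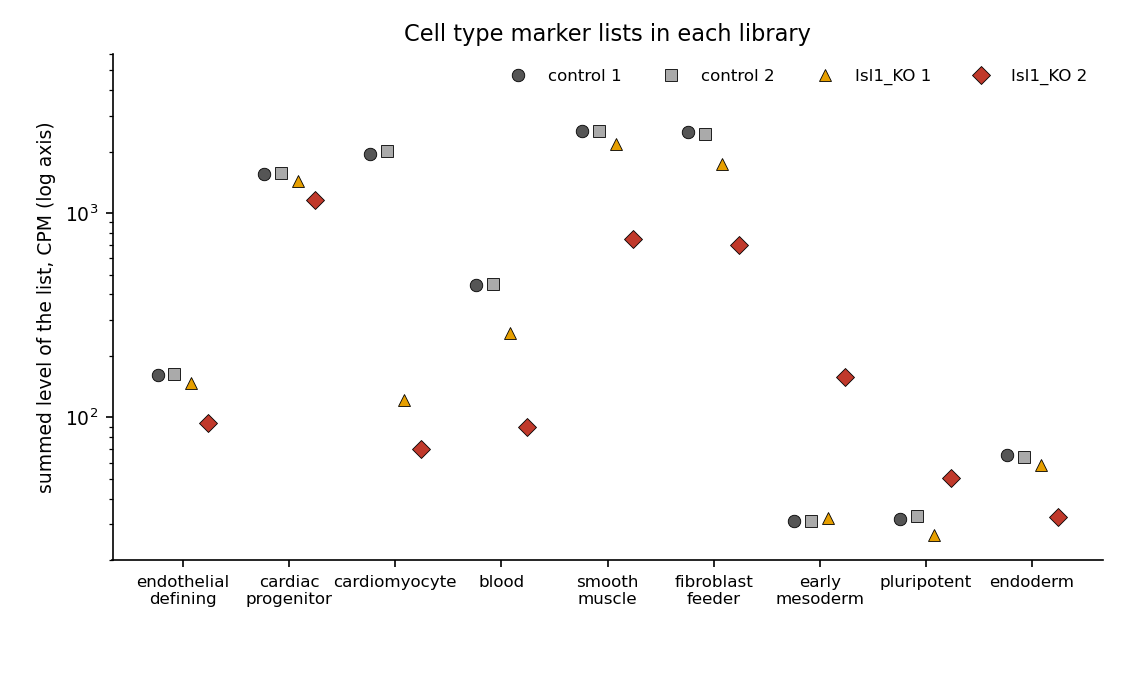
Summed level in CPM (log axis) of 9 cell type marker lists in the 2 control and 2 Isl1_KO libraries, with 1 point per library. The control points coincide within each list, while Isl1_KO replicate 2 lies at 94.4 CPM for the endothelial list against 161 and 164 CPM in control, and at 158.5 CPM for the early mesoderm list.

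Of the 34 genes, 33 passed the filter on low counts, Robo4 being the exception. Angpt1, which encodes the activating ligand of the receptor Tek, was the only gene of the list that passed the adjusted threshold in edgeR's test, and it was lower in Isl1_KO (1 of 33, or 3.03%). DESeq2 called 4 of 32 with an adjusted p at the same threshold (12.5%, against 4.67% of 12933 genes), namely Flt1, Tek, Angpt1 and Angpt2. The edgeR count was 26 of 33 without Isl1_KO replicate 1 (78.8%, against 49.4% of all genes in that fit) and 18 of 33 without Isl1_KO replicate 2 (54.5%, against 32.7%), where the spread comes from the control pair alone. It was 0 without control replicate 1 (background 0.215%), without control replicate 2 (background 0.244%) or with the control libraries taken as 1 sample (background 0.234%). At an unadjusted p under 0.05 there were 9 genes lower (27.3% of 33, against 12.2% of all tested genes) and 5 higher (15.2%, against 11%). Both Isl1_KO libraries lay below both control libraries for 15 of the 33 tested genes (45.5%, against 29% of all tested genes), and above them for 9 (27.3%, against 29.2%). The median log2 fold change of the 33 genes was -0.37, against -0.0025 over all tested genes. By the criteria the study applied, a DESeq2 log2 fold change beyond 0.58 with an unadjusted p-value under 0.05, 10 of the 34 genes were lower (background 4.57% of 16855 genes) and 2 were higher (background 1.32%). The 10 were Sox18, Flt4, Tek, Tie1, Angpt1, Angpt2, Cdh5, Emcn, Cldn5 and Plvap, and the 2 were Fli1 and Flt1. For any gene taken alone, the exact permutation p of 2 libraries against 2 (two-sided) is never below 0.333, and p-values here measure only the spread between these clones.

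Set against the control mean one at a time, the Isl1_KO libraries differed in how far the endothelial genes lay from control. In replicate 1, 5 of the 33 genes were at least 2-fold lower (4.18% of all tested genes) and 0 were 2-fold higher (background 0.401%). These 5 were Sox18, Angpt1, Angpt2, Emcn and Cldn5. In replicate 2, 13 were at least 2-fold lower (7.57% of all tested genes), namely the same 5 with Flt4, Tek, Tie1, Cdh5, Esam, Icam2, Plvap and Mmrn2. Apln, a secreted peptide ligand of Aplnr, was the 1 gene at least 2-fold higher in replicate 2 (background 1.6%). The median log2 ratio of the 33 genes was -0.077 in replicate 1 and -0.72 in replicate 2, where the medians over all tested genes were -0.0025 and 0.00063. Both ratios use the same control libraries. Sox18, Angpt2, Emcn, Cldn5 and Icam2 had fewer than 10 counts in at least 1 Isl1_KO library. They passed the filter through their higher control counts, so among such genes only falls could be counted. With at least 10 counts required in every library these genes drop out and 28 remain tested. They are also among the 15 genes below control in both Isl1_KO libraries.

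The Isl1_KO libraries were also set against each other. Both ratios above share the control mean, so the order of the libraries for each gene is the same here by construction. It adds no separate support. The genes counted had also passed the filter with the controls, and Sox18, Angpt2 and Cldn5 did so through their control counts. Replicate 2 was below replicate 1 for 25 of the 33 tested genes (75.8%, against 48.3% of all tested genes). The genes at least 2-fold lower in replicate 2 than in replicate 1 were Sox18, Tek, Angpt2, Esam, Cldn5 and Plvap, 6 of 33 (background 3.22%), and 0 were 2-fold higher (background 1.53%). Between the control libraries 0 of the 33 genes differed by 2-fold in either direction (background 0.22% lower and 0.212% higher). For 14 genes the levels ran from both control libraries down to replicate 1 and further down to replicate 2 (42.4%, against 19.8% of all tested genes), and for 5 genes, Fli1, Sox7, Flt1, Aplnr and Apln, they ran upward in the same way (15.2%, against 21.2%).

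**Figure D2:**
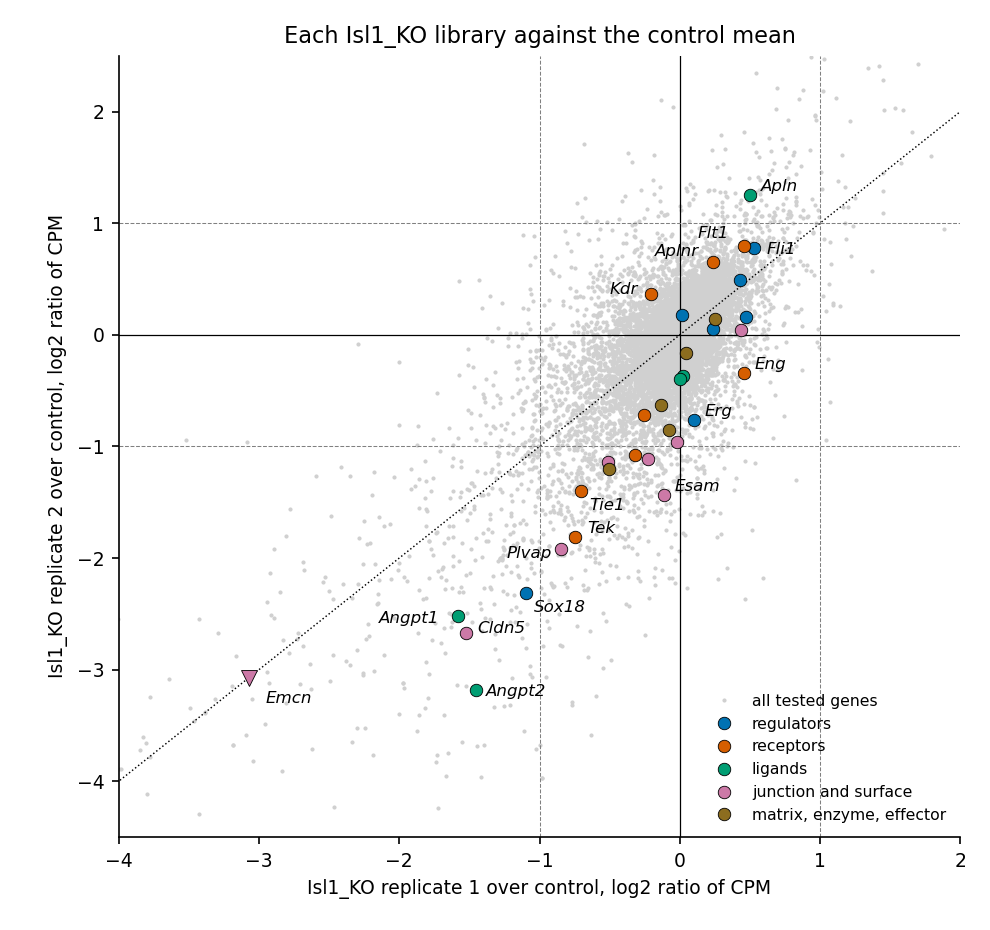
Log2 ratio of each Isl1_KO library to the control mean (prior count of 2), replicate 1 on the x axis and replicate 2 on the y axis, for the 33 endothelial genes (coloured by role) over all 12715 tested genes (grey, 54 of them outside the axes); the triangle marks Emcn, at 0 counts in both Isl1_KO libraries, and dashed lines mark 2-fold. Most of the genes that lie to the lower left, such as Tek, Plvap, Sox18 and Angpt2, are below the dotted line of equal ratios, with the lower value in replicate 2, while Fli1, Flt1, Aplnr and Apln lie above 0 on both axes.

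The regulators did not share a direction. Of the 7, 0 passed the adjusted threshold in edgeR's test and 0 in DESeq2, while 3 (Fli1, Sox7 and Sox18) had an unadjusted p under 0.05 in edgeR, as did 23.2% of all tested genes. Etv2 (chromosome 7, 31418635 to 31421308), the ETS factor that starts the endothelial and blood programme, was at 21.6 and 18.8 CPM in control against 28.1 and 22.6 in Isl1_KO. Both Isl1_KO libraries lay above both control libraries, but replicate 2 by little, at 1.12 times the control level. Its log2 fold change was 0.33 (SE 0.16, adjusted p of 0.277 in edgeR's test). Fli1 (chromosome 9, 32229793 to 32348974), a later ETS factor, was at 15.3 and 17.9 CPM in control against 24.1 and 28.6 in Isl1_KO, with the Isl1_KO libraries above control. The log2 fold change of Fli1 was 0.66 (SE 0.15, adjusted p of 0.0937 in edgeR's test), the smallest adjusted p among the regulators. Ets1 (chromosome 9, 32443806 to 32565405), the next gene to Fli1 on that chromosome among those listed, was at 207 and 207 CPM in control against 243 and 215 in Isl1_KO and also lay above control in both Isl1_KO libraries, by 0.15 on the log2 scale (adjusted p of 0.342 in edgeR's test). Erg (chromosome 16, 95580776 to 95808200), an ETS factor that keeps endothelial identity, was at 10.2 and 11.3 CPM in control against 11.5 and 6.25 in Isl1_KO. Replicate 1 was just above the control libraries, and replicate 2 was at 0.581 times the control level (95% counting interval 0.437 to 0.765), so the Isl1_KO libraries lay on either side of control.

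The SoxF genes differed from each other. Sox18 (chromosome 2, 181404541 to 181406345), the SoxF factor needed for lymphatic and vessel development, had 29 and 31 counts in the control libraries against 19 and 6 for Isl1_KO. It was at 3.29 and 3.39 CPM in control against 1.46 and 0.521 in Isl1_KO, that is at 0.437 times the control level in replicate 1 (95% counting interval 0.246 to 0.742) and 0.156 times in replicate 2 (0.0550 to 0.359). Both Isl1_KO libraries lay well below control, and the log2 fold change was -1.71 (SE 0.47, adjusted p of 0.125 in edgeR's test). Sox7 (chromosome 14, 64562511 to 64569569), a SoxF gene of early vascular precursors, was at 13.5 and 15.1 CPM in control against 19.3 and 20.2 in Isl1_KO, above control in both Isl1_KO libraries, with a log2 fold change of 0.46 (SE 0.13, adjusted p of 0.131 in edgeR's test). Sox17 (chromosome 1, 4481009 to 4486494), which marks arterial endothelium and also endoderm, was at 11.5 and 8.86 CPM in control against 10.3 and 11.5 in Isl1_KO, and its groups overlapped (adjusted p of 0.782 in edgeR's test). Without molecular identifiers in the reads, the counting intervals here and below hold no other error than that of counting.

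Among the VEGF receptors the direction differed by gene and by clone. Kdr (chromosome 5, 76328852 to 76374483), the main signalling receptor for VEGF, was at 217 and 214 CPM in control against 186 and 278 in Isl1_KO. Replicate 1 was below both control libraries, at 0.867 times the control level (95% counting interval 0.823 to 0.912), and replicate 2 was above both, at 1.29 times (1.23 to 1.35). The log2 fold change of 0.11 (SE 0.19, adjusted p of 0.770 in edgeR's test) therefore averages clones that lay on opposite sides of control. Flt1 (chromosome 5, 148373180 to 148537587), which binds VEGF tightly and limits its action on Kdr, was at 58.5 and 68.1 CPM in control against 86.9 and 109.8 in Isl1_KO. Both Isl1_KO libraries were above both controls, and the log2 fold change was 0.63 (SE 0.14, adjusted p of 0.0909 in edgeR's test). Flt4 (chromosome 11, 49422765 to 49466241), the receptor for VEGF-C, was at 20.3 and 18.8 CPM in control against 15.7 and 9.197 in Isl1_KO. Here both Isl1_KO libraries were below control, replicate 2 at 0.470 times the control level, and the log2 fold change was -0.65 (SE 0.27, adjusted p of 0.227 in edgeR's test).

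The angiopoietin receptor pair had the largest negative fold changes among the 8 tested receptors. Tek (chromosome 4, 94405980 to 94541667), also known as Tie2, had 495 and 529 counts in the control libraries against 441 and 186 for Isl1_KO, or 56.2 and 57.9 CPM in control against 33.9 and 16.1 in Isl1_KO. It stood at 0.594 times the control level in replicate 1 (95% counting interval 0.530 to 0.665) and at 0.283 times in replicate 2 (0.241 to 0.331). The groups did not overlap, and the log2 fold change was -1.18 (SE 0.33, adjusted p of 0.132 in edgeR's test). Tie1 (chromosome 4, 118143796 to 118162666), the partner of Tek, was at 14.4 and 11.4 CPM in control against 7.84 and 4.77 in Isl1_KO, with both Isl1_KO libraries below control in the same order. Its log2 fold change was -1.02 (SE 0.28, adjusted p of 0.129 in edgeR's test).

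The remaining receptors gave smaller or mixed differences. Aplnr (chromosome 2, 84976517 to 84980079), the apelin receptor of early cardiac and vascular mesoderm, was at 85.6 and 83.0 CPM in control against 99.4 and 132 in Isl1_KO. Both Isl1_KO libraries were above control, and the log2 fold change was 0.46 (SE 0.14, adjusted p of 0.158 in edgeR's test). Eng (chromosome 2, 32502115 to 32538189), a co-receptor for TGF-beta family ligands, was at 27.6 and 29.1 CPM in control against 39.0 and 22.3 in Isl1_KO, above control in replicate 1 and below it in replicate 2, with a log2 fold change of 0.12 (SE 0.27, adjusted p of 0.829 in edgeR's test). An exon of Eng overlaps Ak1 and Fpgs, and the counting joined both strands, so its value is less certain. Ramp2 (chromosome 11, 101107342 to 101120860), the partner protein of the adrenomedullin receptor, was at 14.9 and 12.6 CPM in control against 11.5 and 8.24 in Isl1_KO and has an exon overlapping Vps25; its log2 fold change was -0.47 (SE 0.21, adjusted p of 0.263 in edgeR's test). Robo4 (chromosome 9, 37209482 to 37221608), an endothelial guidance receptor, had 8 and 5 counts in the control libraries against 6 and 2 for Isl1_KO, too few for a test.

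Among the 5 ligands both angiopoietins lay below control, and Angpt1 was the gene that passed. Angpt1 (chromosome 15, 42256273 to 42508523) had 402 and 401 counts in the control libraries against 193 and 88 for Isl1_KO, or 45.6 and 43.9 CPM in control against 14.8 and 7.63 in Isl1_KO. It was at 44.8 ± 1.24 CPM in control (SD, n = 2) and 11.2 ± 5.09 CPM in Isl1_KO (SD, n = 2). Both Isl1_KO libraries were far below the control pair, at 0.332 times the control level in replicate 1 (95% counting interval 0.282 to 0.388) and 0.171 times in replicate 2 (0.135 to 0.213). Angpt1 fell by 1.98 on the log2 scale (SE 0.30, edgeR quasi-likelihood adjusted p of 0.0446). Over the 11 alternatives its log2 fold change ranged from -2.55 to -1.59, and its adjusted p in edgeR or DESeq2 from 2.01e-76, without Isl1_KO replicate 1, to 0.361. Angpt1 no longer passed in edgeR without control replicate 1 (adjusted p of 0.361) or control replicate 2 (0.317).

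Angpt2 (chromosome 8, 18690263 to 18741562), the context-dependent antagonist of the same receptor, had 50 and 62 counts in the control libraries against 28 and 6 for Isl1_KO. It was at 5.68 and 6.78 CPM in control against 2.15 and 0.521 in Isl1_KO, which is 0.345 times the control level in replicate 1 (95% counting interval 0.219 to 0.526) and 0.0834 times in replicate 2 (0.0300 to 0.187). Both angiopoietins thus lay below control in both clones, with Angpt2 at a log2 fold change of -2.18 (SE 0.54, adjusted p of 0.109 in edgeR's test). Apln (chromosome X, 45378323 to 45388030), the apelin peptide of vessel sprouts, had 18 and 16 counts in the control libraries against 36 and 55 for Isl1_KO. Its level was 2.04 and 1.75 CPM in control against 2.77 and 4.77 in Isl1_KO, above control in both Isl1_KO libraries, and the log2 fold change was 0.98 (SE 0.37, adjusted p of 0.206 in edgeR's test). Apln and its receptor Aplnr therefore lay on the same side of control, although neither passed the adjusted threshold.

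The VEGF ligands stayed near control in replicate 1. Vegfa (chromosome 17, 46153942 to 46169326), the ligand of Kdr and Flt1, was at 237 and 231 CPM in control against 239 and 181 in Isl1_KO. Its log2 fold change was -0.16 (SE 0.14, adjusted p of 0.529 in edgeR's test), with replicate 1 at 1.02 and replicate 2 at 0.772 times the control level. Vegfc (chromosome 8, 55162886 to 55271808), the ligand of Flt4, was at 34.7 and 35.6 CPM in control against 35.2 and 26.7 in Isl1_KO, again with replicate 2 alone below control, at 0.760 times the control level. Replicate 2 was the lower library for both.

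Of the 8 junction and surface genes, 6 had both Isl1_KO libraries below both control libraries, 1 (Pecam1) had both above and 1 (Esam) overlapped, where 29% of all tested genes lay below in this way and 29.2% above. Their median log2 fold change was -0.76, the lowest of the 5 role groups. Emcn, Cldn5 and Icam2, which are among the 6 and enter this median, passed the filter through their control counts. For such genes only falls could be counted, so the comparison with all tested genes is not an even one. Cdh5 (chromosome 8, 106625525 to 106668402), VE-cadherin of the adherens junction, was at 35.0 and 36.9 CPM in control against 30.7 and 16.5 in Isl1_KO. Replicate 1 was slightly below control, at 0.853 times (95% counting interval 0.751 to 0.968), and replicate 2 at 0.459 times (0.388 to 0.540), with a log2 fold change of -0.60 (SE 0.29, adjusted p of 0.286 in edgeR's test). Pecam1 (chromosome 11, 106515531 to 106611942), CD31, a surface adhesion molecule found early on endothelial and blood precursors, was at 53.9 and 56.6 CPM in control against 74.9 and 57.0 in Isl1_KO. Its groups did not overlap, but replicate 2 was at only 1.03 times the control level (95% counting interval 0.933 to 1.14), and the log2 fold change was 0.26 (SE 0.15, adjusted p of 0.348 in edgeR's test). Cdh5 and Pecam1, both used as defining markers, thus lay on opposite sides of control.

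Low counts limited the next group. Emcn (chromosome 3, 137004031 to 137095149), endomucin, a sialomucin of venous and endocardial surfaces, had 15 and 10 counts in the control libraries against 0 and 0 for Isl1_KO. Set to a floor of 3 counts per library, it was 6.06-fold lower in replicate 1 and 5.37-fold lower in replicate 2 than control. These values take the control mean of 1.40 ± 0.430 CPM (SD, n = 2) as exact. With counting error in both groups, Emcn could lie as high as 0.219 and 0.248 times the control level (upper ends of the 95% counting intervals). Its adjusted p was 0.0626 in edgeR's test, and its fitted fold change is not given because it depends on the prior count. Cldn5 (chromosome 16, 18776940 to 18778353), the tight junction claudin of endothelium, had 19 and 19 counts in the control libraries against 8 and 2 for Isl1_KO, or 2.16 and 2.08 CPM in control against 0.615 and 0.174 in Isl1_KO. Both Isl1_KO libraries lay below control, and the log2 fold change was -2.35 (SE 0.53, adjusted p of 0.0916 in edgeR's test), although replicate 2 was under the floor of 3 counts. Plvap (chromosome 8, 74021653 to 74035668), the diaphragm protein of fenestrated vessels, had 100 and 86 counts in the control libraries against 74 and 30 for Isl1_KO, which is 0.549 times the control level in replicate 1 (95% counting interval 0.413 to 0.722) and 0.251 times in replicate 2 (0.165 to 0.371). Its log2 fold change was -1.31 (SE 0.37, adjusted p of 0.134 in edgeR's test).

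In the other 3 junction and surface genes replicate 2 had the lower level. Esam (chromosome 9, 37335663 to 37345904), a tight junction adhesion molecule whose gene lies near Robo4, was at 4.54 and 5.47 CPM in control against 4.61 and 1.74 in Isl1_KO, with replicate 1 inside the control range and replicate 2 at 0.346 times the control level (95% counting interval 0.202 to 0.566). Ecscr, an endothelial surface protein of cell migration, was at 21.2 and 21.6 CPM in control against 21.1 and 10.9 in Isl1_KO and shares an exon with 1700066B19Rik. Icam2 (chromosome 11, 106238970 to 106249389), an adhesion molecule whose gene lies near Pecam1, had 16 and 19 counts in the control libraries against 17 and 9 for Isl1_KO. It lay below control in both Isl1_KO libraries where Pecam1 lay above, and its log2 fold change was -0.88 (SE 0.38, adjusted p of 0.242 in edgeR's test). The adjusted p was 0.457 in edgeR's test for Esam and 0.468 for Ecscr.

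Among the 5 genes of matrix, enzyme and effector products, Mmrn2 had the largest fold change in size. Mmrn2 (chromosome 14, 35188690 to 35217473), an extracellular matrix protein of endothelium, was at 6.70 and 7.003 CPM in control against 4.77 and 2.86 in Isl1_KO, below control in both Isl1_KO libraries. Its log2 fold change was -0.83 (SE 0.29, adjusted p of 0.181 in edgeR's test). Egfl7 (chromosome 2, 26435534 to 26448640), a secreted endothelial factor whose exons overlap Agpat2, was at 51.6 and 51.5 CPM in control against 53.2 and 46.2 in Isl1_KO, on either side of control, and its log2 fold change of -0.05 (SE 0.10, adjusted p of 0.790 in edgeR's test) was the smallest of all 33 in size. Rasip1 (chromosome 7, 52882858 to 52894463), a Ras-interacting protein of vessel lumen formation, was at 19.6 and 22.5 CPM in control against 19.99 and 11.6 in Isl1_KO, inside the control range in replicate 1 and below it in replicate 2. Nos3 (chromosome 5, 23870628 to 23890292), endothelial nitric oxide synthase, had 42 and 37 counts in the control libraries against 52 and 32 for Isl1_KO and a log2 fold change of -0.37 (SE 0.28, adjusted p of 0.466 in edgeR's test). Vwf (chromosome 6, 125496792 to 125636697), the clotting protein of mature endothelium, was at 6.02 and 5.14 CPM in control against 6.69 and 6.16 in Isl1_KO, with both Isl1_KO libraries above control by a log2 fold change of 0.20 (SE 0.20, adjusted p of 0.571 in edgeR's test). Exons of Rasip1 overlap Izumo1 and those of Nos3 overlap Atg9b, so these values are less certain.

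**Figure D3:**
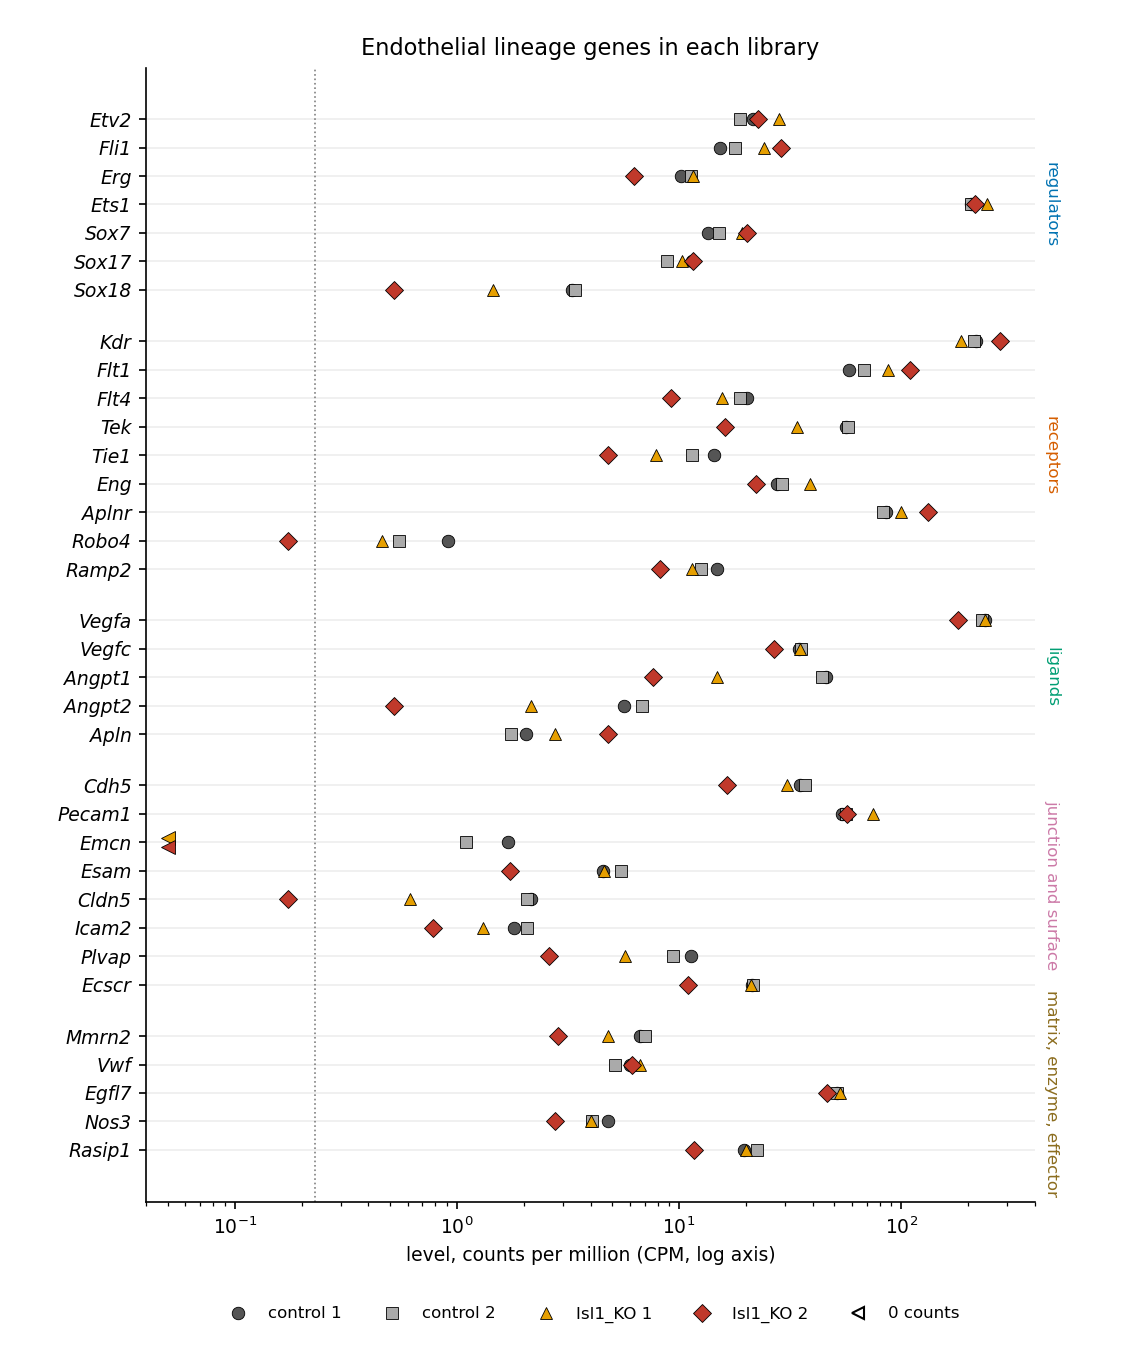
Level of the 34 endothelial genes in each library in CPM (log axis), grouped by role, with 1 point per library; triangles at the left edge mark 0 counts and the dotted line marks 3 counts in the deepest library (0.231 CPM). The control points lie close together, and for Tek, Tie1, Angpt1, Angpt2, Sox18, Cldn5 and Plvap the Isl1_KO points lie to their left with replicate 2 farthest, as for Angpt1 at 14.8 and 7.63 CPM against 45.6 and 43.9 CPM.

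Per kilobase of transcript, the levels spanned a wide range in control, from 0.189 CPM per kilobase for Robo4 to 66.6 for Vegfa. The genes with the highest levels per kilobase in control were Vegfa, Ets1, Kdr and Egfl7, at 66.6, 40.9, 39.7 and 37.5, and they held the same ranks 1 to 4 in Isl1_KO. In Isl1_KO, Ets1 and Kdr, at 45.3 and 42.8, differed by less than the spread of Kdr between the clones. Tek moved from rank 11 in control to rank 16 in Isl1_KO, Angpt1 from rank 12 to rank 20, and Flt1 from rank 13 to rank 9.

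**Figure D4:**
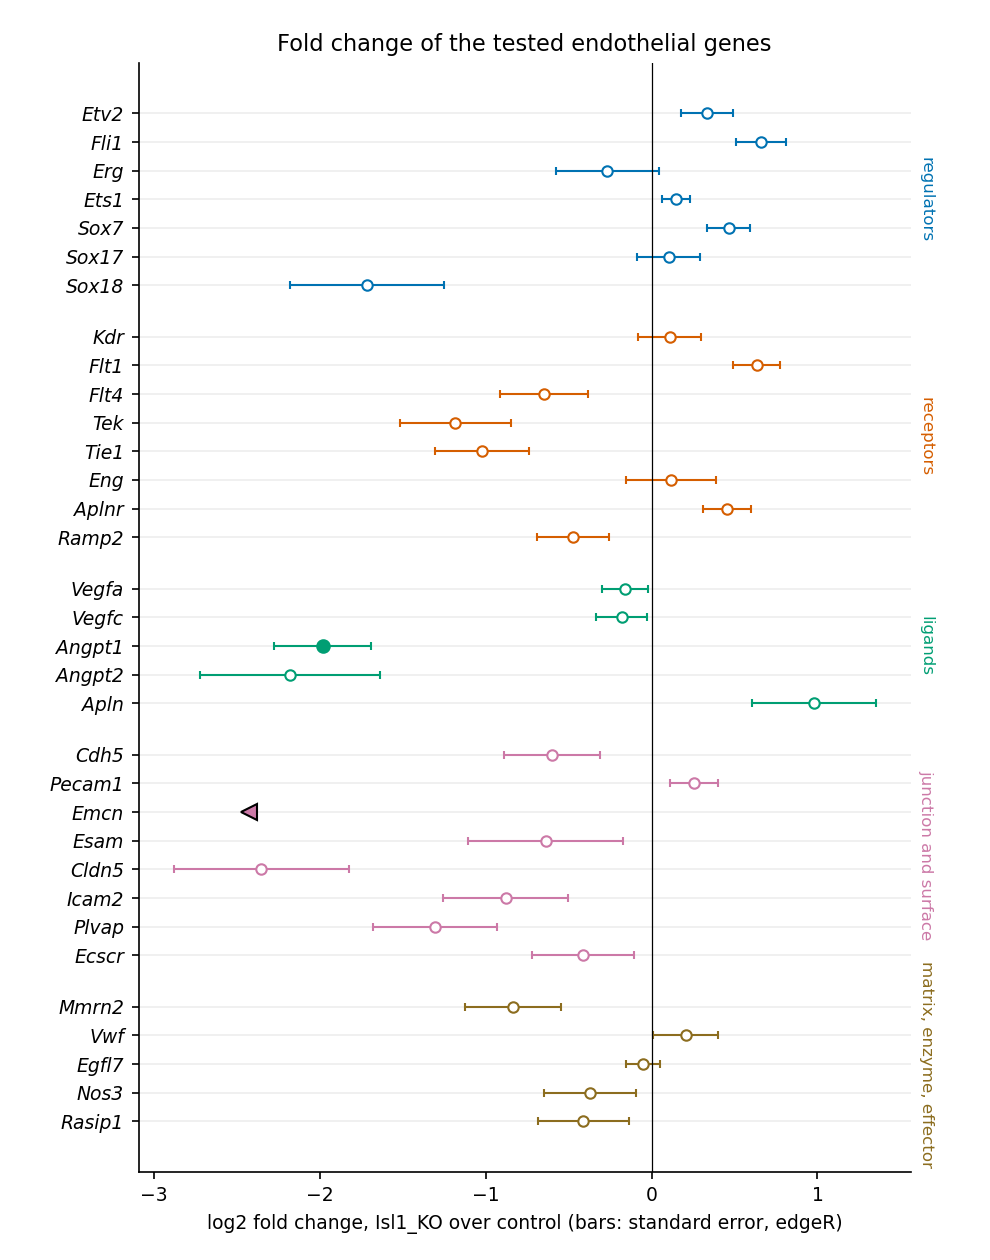
Log2 fold change of Isl1_KO over control for the 33 tested endothelial genes with its standard error from edgeR (bars), 2 libraries per group, grouped by role. The filled point is Angpt1 (-1.98, SE 0.30), the gene past the adjusted threshold, open points did not pass, and the triangle is the upper limit for Emcn, which was at 0 counts in both Isl1_KO libraries.

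The promoters of these genes were examined for ETS-type letters, since ETS factors are among the regulators above. RefSeq windows from 250 bases before to 50 bases after a start (GRCm38.p6, not the build of the counts) were at hand for 16 of the 34 genes, in 21 windows. The letters CCGGAA or CAGGAA, read on both strands, occurred in 14 of these 21 windows (66.7%), covering 13 of the 16 genes, against 41.4% of 32851 windows of the same length. The shorter core GGAA occurred in 95.2% of the 21 windows and in 96% of all. The GATA letters AGATAA or TGATAA occurred in 23.8% of the 21 windows, against 18.6% of all, and CTAATG, letters preferred by LIM-homeodomain factors, in 14.3%, against 7.36%. These are matches of letters and not sites of binding. Of the 6 genes with the smallest adjusted p (Angpt1, Emcn, Flt1, Cldn5, Fli1 and Angpt2), windows were at hand for Emcn (chr3:137340828-137341127, plus strand), Flt1 (chr5:147725962-147726261, minus strand) and Cldn5 (chr16:18776597-18776896, plus strand). They are shown 5′ to 3′ because they stand for members below (Emcn and Cldn5) and above (Flt1) control, with capitals marking the ETS letters TTCCTG, the reverse complement of CAGGAA, which occur only in the window of Emcn, starting 173 and 67 bases before the start.
Emcn: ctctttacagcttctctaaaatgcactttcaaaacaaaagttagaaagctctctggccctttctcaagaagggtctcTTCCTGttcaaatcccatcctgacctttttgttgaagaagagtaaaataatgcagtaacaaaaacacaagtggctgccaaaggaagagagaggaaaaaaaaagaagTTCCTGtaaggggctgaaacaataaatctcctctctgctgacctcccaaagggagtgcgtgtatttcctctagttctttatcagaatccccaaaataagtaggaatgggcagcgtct
Flt1: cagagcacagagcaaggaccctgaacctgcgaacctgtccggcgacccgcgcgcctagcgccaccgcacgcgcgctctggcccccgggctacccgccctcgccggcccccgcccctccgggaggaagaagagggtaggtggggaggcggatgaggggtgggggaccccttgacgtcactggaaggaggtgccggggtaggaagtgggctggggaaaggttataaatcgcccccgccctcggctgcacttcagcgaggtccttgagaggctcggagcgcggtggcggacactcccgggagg
Cldn5: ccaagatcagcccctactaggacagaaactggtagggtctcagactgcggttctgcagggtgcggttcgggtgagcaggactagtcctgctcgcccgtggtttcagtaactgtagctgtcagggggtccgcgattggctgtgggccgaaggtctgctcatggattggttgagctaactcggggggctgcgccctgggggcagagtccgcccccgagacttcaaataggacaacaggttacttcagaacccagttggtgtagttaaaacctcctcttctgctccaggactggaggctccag

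Other vascular genes, 60 of 61 listed symbols, were placed beside the 34. Of the 54 tested, edgeR called 3 lower and 1 higher with adjusted p-values below 0.05 (backgrounds 1.94% and 0.511%), and the median log2 fold change was -0.23. Fits that left out a library kept 1 library in a group, so their calls for this list are not set against a background here. Among 11 tested genes of VEGF, angiopoietin, apelin and adrenomedullin signalling, Apela, another peptide ligand of Aplnr, was at 64.4 and 61.9 CPM in control against 34.5 and 31.2 in Isl1_KO and fell by 0.94 on the log2 scale (SE 0.0961, adjusted p of 0.0184 in edgeR's test). The direction of Apela was opposite to that of Apln, the other ligand, which did not pass the threshold. The gene with the largest positive value in that list was Vegfb, a ligand of Flt1, at a log2 fold change of 0.21 (SE 0.08, adjusted p of 0.211 in edgeR's test). Among 13 tested Notch and arterial-venous genes, Jag1, a Notch ligand, fell from 61.9 ± 1.53 CPM in control (SD, n = 2) to 12.6 ± 1.57 CPM in Isl1_KO (SD, n = 2), a log2 fold change of -2.29 (SE 0.12, adjusted p of 0.00294 in edgeR's test). The largest positive value was that of Unc5b, a guidance receptor of arterial cells, at 0.08 (SE 0.08, adjusted p of 0.618 in edgeR's test). Dll4, the Notch ligand of arterial endothelium, was at 1.93 and 2.19 CPM in control against 0.769 and 0.260 in Isl1_KO and Nr2f2, the regulator of venous identity, at 12.3 and 10.9 CPM in control against 3.84 and 1.65 in Isl1_KO; neither passed (adjusted p of 0.117 and 0.0674).

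The list of hemogenic and endothelial regulators had a median log2 fold change of 0.57 over its 14 tested genes. Of these, 9 had a log2 fold change above 0 (Tal1, Lmo2, Gata2, Runx1, Lyl1, Hhex, Gfi1, Gfi1b and Nfe2). The 5 below 0 were Mecom, Elk3, Foxc1, Foxc2 and Klf2, so the median does not stand for all of the list. Both Isl1_KO libraries lay above both control libraries for 8 genes (29.2% of all tested genes did). They lay below for 4 (29% of all). Runx1, the regulator of blood formation from hemogenic endothelium, was at 70.4 and 71.9 CPM in control against 102 and 109.8 in Isl1_KO and rose by 0.57 on the log2 scale (SE 0.0735, adjusted p of 0.0335 in edgeR's test). Tal1 and Gata2, which act with Etv2 in early blood and endothelial precursors, were at 38.0 and 39.9 CPM in control against 58.3 and 90.1 in Isl1_KO and at 26.9 and 26.7 CPM in control against 45.5 and 76.3 in Isl1_KO, highest in replicate 2 in each case, with adjusted p of 0.0972 and 0.0876 in edgeR's test. Foxc1, a forkhead factor of vascular and cardiac mesoderm, was at 16.8 and 16.9 CPM in control against 5.53 and 3.99 in Isl1_KO and fell by 1.81 on the log2 scale (SE 0.20, adjusted p of 0.0227 in edgeR's test). Mecom, a factor of arterial endothelium and blood stem cells, was at 29.7 and 29.2 CPM in control against 7.92 and 2.34 in Isl1_KO, with an adjusted p of 0.0707. The 16 tested genes of the last list, other endothelial surface and signalling genes, had a median of -0.53, with 12 below 0 and 0 called; among them 9 had both Isl1_KO libraries below control and 1 above, against 29% and 29.2% of all tested genes. The lowest value there was that of Adgrl4, an adhesion receptor of sprouting endothelium, at -2.34 (SE 0.43, adjusted p of 0.0684 in edgeR's test), and the highest that of Fgd5, an endothelial exchange factor, at 0.52 (SE 0.21, adjusted p of 0.220 in edgeR's test). The 0 calls of that list in edgeR's test compare with 6 of its 16 tested genes at an unadjusted p under 0.05 (23.2% of all tested genes) and 0 called by DESeq2. Adgrl4 had 29 and 27 counts in the control libraries against 11 and 4 for Isl1_KO. It passed the filter through its control counts, so only a fall could be counted for it. Dll4, Nr2f2, Tal1, Gata2 and Mecom were chosen after their values were seen.

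**Figure D5:**
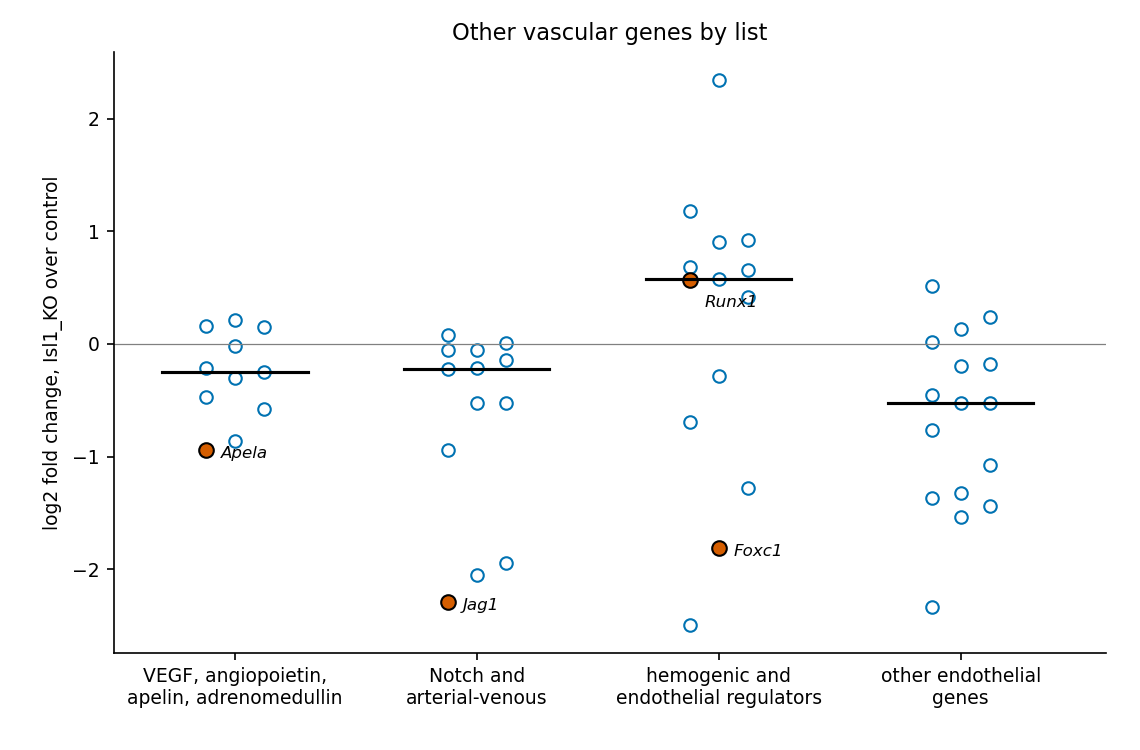
Log2 fold change of Isl1_KO over control for 54 other vascular genes in 4 lists, 1 point per gene, with the black line at the median of each list. Filled points are the 4 genes past the adjusted threshold, with Jag1 (-2.29), Foxc1 (-1.81) and Apela (-0.94) below 0 and Runx1 (0.57) above, and the line lies above 0 only for the hemogenic and endothelial regulators.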

How the data were processed

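The submitters' processing notes name the mm9 genome, STAR, DESeq2 and edgeR, and the study's methods add HOMER; their versions are not given in the sources used here. The authors mapped reads with STAR and used HOMER to count reads in the exons of RefSeq transcripts, strands joined and unadjusted; the deposited counts are raw and whole, 1 row per transcript. The deposited RPKM values, made by the authors with edgeR, were used for a check only (at most 0.746% from a recomputation, entries with at least 200 counts). The authors' DESeq2 comparison columns, which hold a log2 fold change with its standard error, a Wald score, p-values and a mean signal of normalized counts, were not used. Unmatched columns of per-sample values numbered 0.

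Groups came from the sample titles. The main test was edgeR 4.0.16 (R 4.3.3, quasi-likelihood F test, TMM factors, filterByExpr, two-sided, Benjamini-Hochberg over 12715 genes, threshold 0.05), tested on simulated data, and DESeq2 1.42.0 was an alternative. The simulation gave both groups the same spread, so it does not cover the unequal spread of the control and Isl1_KO pairs. Library ratios used a prior count of 2 on the average library; counting intervals are exact conditional 95% intervals. A block by replicate number was an alternative, since nothing in the labels pairs the clones (correlation of same-numbered deviations 0.010 over 12715 genes). All 34 genes were named, with those of 4 wider lists past the threshold, or otherwise with the largest fold change in each direction. Other tools were scipy 1.17.1, numpy 2.4.6, pandas 2.3.3, matplotlib 3.10.9 and Python 3.11.15. The genes and lists were chosen with earlier results of these data known. Nothing says that the clones came from separate cultures at the same time, so the spread between them may be partly technical.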

Additional observations from a re-analysis of the deposited data

How the results depend on the processing

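With 2 clones per group the counts of calls depended on the test. The 1 endothelial gene, 312 of all genes and 4 wider vascular genes called by edgeR became 4, 604 and 10 with DESeq2, 2, 492 and 9 with no filter on low counts, and 0, 31 and 1 with the control libraries taken as 1 sample. With at least 10 counts in every library 0 of the endothelial genes, 217 of all genes and 4 wider genes were called, and the study's criteria in DESeq2 gave 12 endothelial genes and 992 of all genes. With the replicate block 2 endothelial genes (Flt1 and Angpt1), 428 of all genes and 10 wider genes were called; same-numbered libraries did not deviate together, so the block pairs clones by number only, and the cause of the difference was not tested. When 1 library at a time was left out, there were from 0 to 26 endothelial genes, from 28 to 6355 of all genes and from 0 to 42 wider genes. In those fits the lone library is assumed to vary like the other group, so the high counts take their spread from the control pair alone. At 1.5-fold in place of 2-fold, 8 genes lay apart from control in either direction in Isl1_KO replicate 1 and 22 in replicate 2, against 5 and 14. Those of replicate 2 at 1.5-fold included Fli1, Flt1, Aplnr and Apln, which were higher. The share of all tested genes past 1.5-fold was not counted, so the 8 and 22 have no background. The log2 fold change crossed 0 when 1 library was left out for 7 genes, with ranges of -0.78 to 0.10 for Erg, -0.072 to 0.30 for Sox17, -0.21 to 0.37 for Kdr, -0.35 to 0.46 for Eng, -0.37 to 0.027 for Vegfa, -0.40 to 0.0027 for Vegfc and -0.16 to 0.045 for Egfl7. The other 26 tested genes kept their direction under the alternatives run, and edgeR's RLE factors and the longest entry per symbol left each endothelial and wider count as it was. Angpt1 did not pass in 4 of 11 alternatives. Genes under about 20 counts per library, such as Emcn, Cldn5, Icam2 and Robo4, are limited by depth.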

Other observations

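Of the 6 early mesoderm markers, Eomes, Mixl1, T and Mesp1 were highest in Isl1_KO replicate 2, while Tbx6 and Mesp2 were not. Eomes, a T-box factor of mesoderm and endoderm formation, was at 13.7 and 12.1 CPM in control, 18.2 CPM in Isl1_KO replicate 1 and 88.1 CPM in replicate 2. Mixl1, a homeobox factor of the primitive streak, was at 3.52, 4.596, 4.38 and 24.7 CPM in the same order. T, the brachyury gene, was at 12.6, 12.04, 7.61 and 40.6 CPM. Tbx6 was at 0.795, 1.53, 1.31 and 1.39 CPM, and Mesp1 and Mesp2 did not pass the filter on low counts. Of the 33 tested endothelial genes, 25 were lower in replicate 2 than in replicate 1. Fli1, Sox7, Sox17, Kdr, Flt1, Aplnr and Apln had their highest level in replicate 2. A link between these levels and the early mesoderm markers was not tested.

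Embryonic globin genes had their lowest level in replicate 2 as well. Hbb-bh1 was at 284 and 293 CPM in control, 159.7 CPM in Isl1_KO replicate 1 and 42.0 CPM in replicate 2. Gata1, the erythroid regulator, was at 9.08, 8.10, 14.5 and 16.4 CPM, and Itga2b, a surface marker of early blood precursors, at 11.4, 11.7, 20.1 and 18.7 CPM, so both lay above control in both Isl1_KO libraries. Of Eomes, Mixl1, T, Hbb-bh1, Gata1 and Itga2b, 0 passed the adjusted threshold in edgeR's test and 0 in DESeq2, while all but Mixl1 and T had an unadjusted p under 0.05 in edgeR. These 6 genes were chosen after their values were seen.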
